A study of Mus musculus with 6 samples.

Results

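The 10 genes described here encode growth factor receptors of liver cells and 3 ligands of the epidermal growth factor (EGF) receptor: Egfr, Erbb2, Erbb3, Met, Fgfr4, Klb, Epha2, Tgfa, Hbegf and Areg. They were chosen by name, by a gene symbol equal to the listed one, and make up 10 of the 34745 genes of the table. Messenger RNA of mouse liver was sequenced in 6 libraries, 1 for each tissue of each sex. The tumors (hepatocellular carcinoma) and the precancerous liver tissue, which the study describes as adjacent to tumors, came from Hras12V transgenic C57BL/6 mice, which carry an activated Hras oncogene. Normal liver came from wild-type C57BL/6 mice. In all 3 tissues the males were aged 9 months and the females 15 months, which ties age to sex throughout, and no animal was treated. The labels do not name the promoter that drives the transgene, do not state if RNA of several mice was pooled, and do not tie a tumor to the precancerous liver of the same mouse. Each p-value below measures only the spread between these 6 libraries.

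Ligands of the EGF family are made as membrane-anchored precursors and are cut free by ADAM proteases. TGF-alpha (Tgfa), HB-EGF (Hbegf) and amphiregulin (Areg) bind the receptor Egfr, which then pairs with itself or with its relatives Erbb2 and Erbb3 and signals through RAS and MAP kinases and through PI3 kinase. Erbb2 has no ligand of its own, and Erbb3 binds neuregulins but has little kinase activity. Met is the receptor of hepatocyte growth factor, which drives hepatocyte growth after liver loss. Fgfr4 and its co-receptor beta-Klotho (Klb) let hepatocytes sense the intestinal hormone FGF15, which represses bile acid synthesis. Epha2 is a receptor of ephrin-A ligands on neighbouring cells.

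Library totals were 5996585 to 7347064 counts in males and 15047022 to 18434508 counts in females, so a female library gave a gene of equal level more counts. Levels are FPKM, the deposited counts divided by gene length and library total. The libraries of the sexes also stood apart in mitochondrial genes: mt-Co1 had 0 counts in every male library and at least 266126 in every female one, while mt-Nd6 had at least 5627 counts in every male library and at most 44 in every female one. Comparisons within a sex do not cross that divide. Xist and the Y-linked gene Ddx3y matched the labelled sex in all 6 libraries. The Hras gene itself had 3.28, 3.27 and 3.50 FPKM in male normal, precancerous and tumor liver, and 2.05, 2.22 and 2.84 FPKM in the female tissues; the table does not separate transgene reads from those of the mouse gene. Albumin (Alb), the hepatocyte marker, was at 22399 FPKM or more in every library.

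Egfr and Erbb3 were the best expressed of the 10 genes. On the FPKM scale Egfr stood first in 5 libraries and Erbb3 in the sixth, female normal liver, and these genes took both top places in all 6. Met, Fgfr4 and Klb held the middle, between 2.79 and 14.5 FPKM over all libraries. In the 4 libraries other than tumors Tgfa and Epha2 ranked below these 3 genes, and in both tumor libraries Tgfa ranked just behind Egfr and Erbb3. Hbegf reached 1 FPKM in both tumors and in female precancerous liver. Areg reached that level in the tumors alone, and Erbb2 stayed below it in every library.

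**Figure D1:**
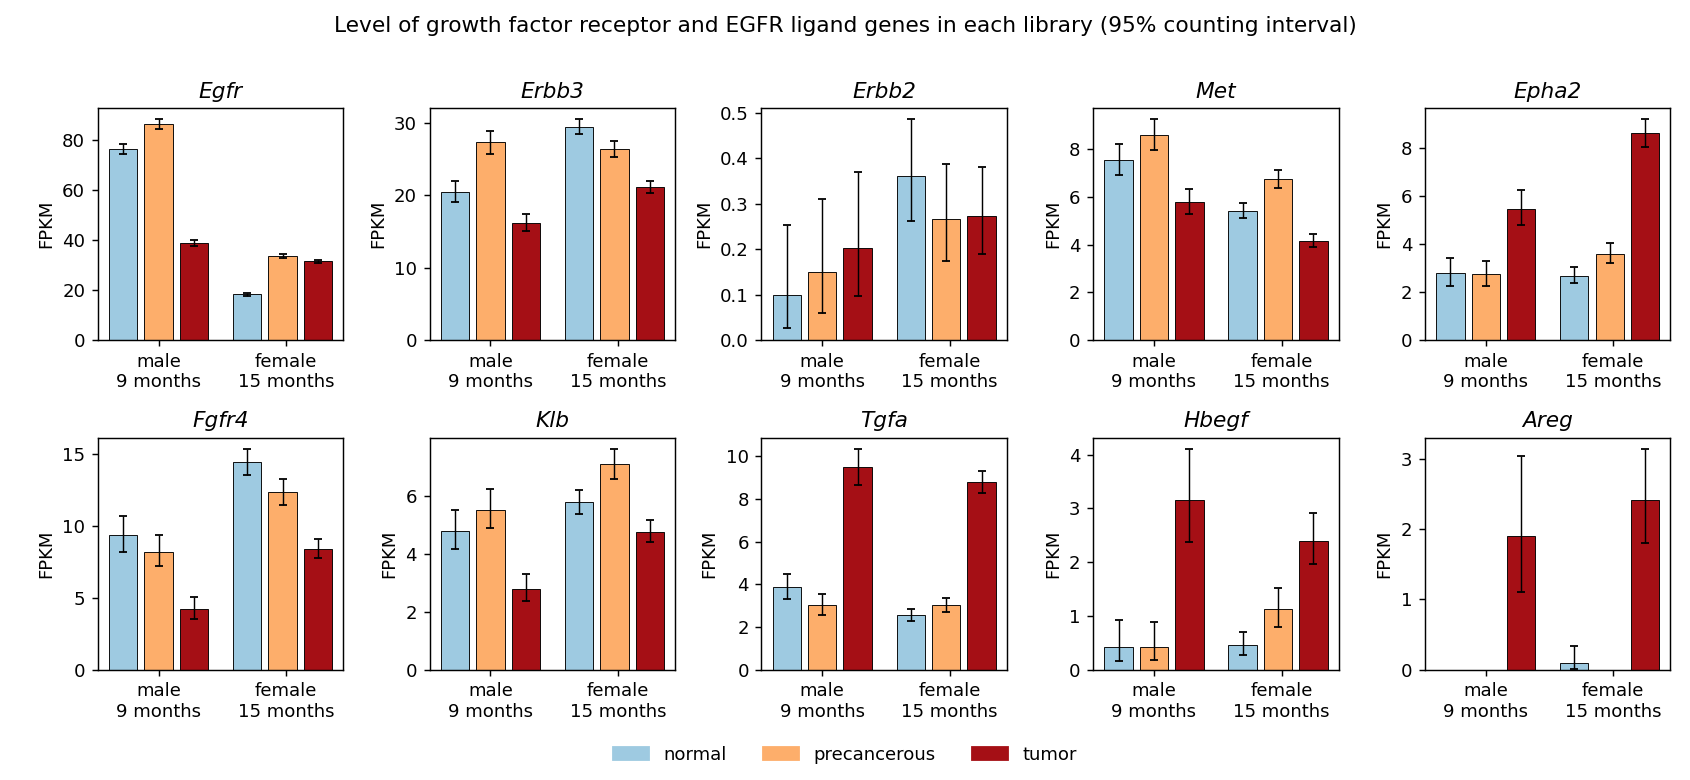
Level of each of the 10 genes in each library, in FPKM on the vertical axes (each panel has its own scale from 0); bars are single libraries in the order normal, precancerous and tumor, males left and females right, and error bars are 95% counting intervals, not replicate error. Tgfa, Hbegf, Areg and Epha2 have their tallest bars in the tumors of both sexes, and Klb its shortest.

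The first question was how tumors differed from precancerous liver, both from Hras12V transgenic mice. Tumors had more message for all 3 EGF receptor ligands and for Epha2, and less for Met, Fgfr4 and Klb. By edgeR's quasi-likelihood test over both sexes, with Benjamini-Hochberg adjustment over 11435 genes, 4 of the 9 genes tested rose and 3 fell at an adjusted p under 0.05. Among all genes tested 13.8% rose and 12.1% fell, and 25.9% passed in either direction. The median fitted log2 fold change of the 9 genes was -0.58, against 0.03 over all genes. That median is the value of Erbb3, which was not called, and shows no common shift, since the 9 genes split in direction. All 10 genes differed in the same direction in males and in females, though Erbb2, which was not tested, differed only within its counting error. Over all genes tested 20.0% moved in opposite directions in the sexes.

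Tgfa, on the plus strand of chromosome 6 at 86195223 to 86275719 (GRCm38), encodes the EGF receptor ligand TGF-alpha. It had 3.86, 3.02 and 9.48 FPKM in male normal, precancerous and tumor liver, and 2.55, 3.02 and 8.79 FPKM in the same female tissues. Both tumors were well above all 4 other libraries, which lay close together, and the precancerous libraries of the sexes were nearly equal. In males the tumor held 508 counts against 152 in precancerous liver, a ratio of 3.14 (95% counting interval 2.61 to 3.78). The female ratio was 2.91 (2.57 to 3.29). Tgfa rose by a log2 fold change of 1.56 ± 0.17 (SE) in tumors (edgeR adjusted p = 0.00527). In a bulk sample, fewer cells of a type and less RNA per cell cannot be told apart, and this holds for every level below. An exon of the gene Gm43917 on the opposite strand covers 118 bases, 1.82%, of the Tgfa exons.

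Areg, on chromosome 5 at 91139599 to 91148432, encodes amphiregulin. It had no count in male normal and male precancerous liver and 17 counts, 1.90 FPKM, in the male tumor. In females it had 2 counts in normal liver, none in precancerous liver and 54 counts, 2.41 FPKM, in the tumor. Detection was thus almost confined to the tumors, with the 2 counts of female normal liver as the exception. Against a floor of 3 counts per library, Areg was at least 5.32-fold higher in the male tumor and at least 14.7-fold higher in the female tumor than in precancerous liver. It passed edgeR's test (adjusted p = 0.0108), and its fitted log2 fold change of 8.03 depends on the prior count and is not a bound. Areg entered the test through the tumor libraries alone, and was not tested where the filter used the mean level.

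Hbegf, on chromosome 18 at 36504929 to 36515805, encodes HB-EGF, a heparin-binding ligand of Egfr and Erbb4. Its levels were 0.422, 0.428 and 3.15 FPKM in male normal, precancerous and tumor liver, and 0.453, 1.12 and 2.40 FPKM in the same female tissues. Both tumors were above all other libraries, and female precancerous liver stood between its normal and tumor libraries. The tumor over precancerous ratio was 7.37 (3.35 to 19.2) in males, where precancerous liver gave 7 counts, and 2.14 (1.48 to 3.17) in females. Hbegf rose by 1.70 ± 0.42 on the log2 scale (edgeR adjusted p = 0.0403), and 8 of 14 alternative settings gave that call.

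Epha2, on chromosome 4 at 141301240 to 141329384, had 2.78, 2.73 and 5.46 FPKM in male normal, precancerous and tumor liver, and 2.68, 3.60 and 8.59 FPKM in the same female tissues. As with Tgfa, the tumors did not overlap the other libraries, and the female tumor was the highest. The male tumor held 224 counts against 105 in precancerous liver, with a counting interval of the ratio of 1.58 to 2.55, and the female ratio was 2.39 (2.09 to 2.74). Epha2 rose by 1.12 ± 0.19 on the log2 scale (edgeR adjusted p = 0.0158). Its ligand gene Efna1, which encodes ephrin-A1, had 18.5 FPKM in the male tumor against 8.15 in precancerous liver, and 15.0 against 8.51 FPKM in females. Efna1 rose by 0.97 ± 0.16 (adjusted p = 0.0145), so the messages of Epha2 and of this ligand were both higher in tumors. Efna5, the other ephrin-A gene tested, went the other way at -0.81 ± 0.28 and was not called (adjusted p = 0.0954). Against normal liver Efna5 fell by 1.52 ± 0.27 (adjusted p = 0.0130). Of 3 Eph receptor genes tested Epha2 alone passed, and of 4 ephrin genes 2 rose, Efna1 and Efnb2, beside 13.8% of all genes tested.

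Because Areg, Epha2 and Tgfa rose together, the 250 bases upstream of their RefSeq start sites are shown, from the plus strand of GRCm38.p6. Capitals mark TGACGTCA, the palindromic cAMP response element, and TATAAA, the core of a TATA box. Areg (chr5:91139349-91139598) and Epha2 (chr4:141300971-141301220) hold the first motif, and Tgfa (chr6:86194972-86195221) holds neither.
Areg: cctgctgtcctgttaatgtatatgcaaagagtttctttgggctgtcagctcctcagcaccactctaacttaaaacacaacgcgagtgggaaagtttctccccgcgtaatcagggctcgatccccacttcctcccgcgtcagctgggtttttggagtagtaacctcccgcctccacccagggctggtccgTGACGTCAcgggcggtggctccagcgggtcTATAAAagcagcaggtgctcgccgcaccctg
Epha2: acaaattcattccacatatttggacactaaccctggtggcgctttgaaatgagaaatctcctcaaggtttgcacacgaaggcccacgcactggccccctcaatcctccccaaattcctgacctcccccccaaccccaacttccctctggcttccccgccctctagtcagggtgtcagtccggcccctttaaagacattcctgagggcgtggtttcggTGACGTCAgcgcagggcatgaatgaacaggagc
Tgfa: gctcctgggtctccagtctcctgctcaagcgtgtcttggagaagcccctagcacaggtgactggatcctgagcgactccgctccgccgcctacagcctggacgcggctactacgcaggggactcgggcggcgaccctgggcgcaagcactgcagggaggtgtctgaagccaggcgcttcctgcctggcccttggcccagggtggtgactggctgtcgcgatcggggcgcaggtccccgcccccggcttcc

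In Areg the cAMP response element lies 61 to 54 bases and the TATA core 31 to 26 bases upstream of the start, and in Epha2 the element lies 33 to 26 bases upstream. Over 32851 mouse promoters of the same length, searched on both strands, TGACGTCA was found in 1.55% and TATAAA in 12.4%. The AP-1 motif, TGAGTCA or its complement TGACTCA, was found in 4.46%. Among the 8 genes with a promoter entry, Met alone held an AP-1 motif. The motifs were chosen after the sequences were seen, and a match in letters does not show a bound site.

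Egfr, on chromosome 11 at 16752203 to 16918158, was lower in the male tumor by far more than in the female one. Its levels were 76.2, 86.1 and 38.7 FPKM in male normal, precancerous and tumor liver, and 18.3, 33.7 and 31.4 FPKM in the same female tissues. The male tumor held 3493 counts against 7284 in precancerous liver, a ratio of 0.450 (0.432 to 0.468). In females the ratio was 0.932 (0.901 to 0.965), a far smaller difference in the same direction. Over both sexes the fitted log2 fold change of -0.58 ± 0.43 did not pass (edgeR adjusted p = 0.369). Without the male tumor library it was 0.02, and without the female tumor library it was -1.39 and passed. The ErbB receptor list thus had 0 calls among its 2 tested genes. Erbb4, also in that list, was too low to be tested. It had 0.0534 FPKM (5 counts) in the male tumor against 0.341 FPKM (30 counts) in precancerous liver. In females it had 0.0936 FPKM (22 counts) against 0.474 FPKM (91 counts), so it was lower in the tumors of both sexes.

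Erbb3, on the minus strand of chromosome 10 at 128567523 to 128589652, had 20.5, 27.3 and 16.2 FPKM in male normal, precancerous and tumor liver, and 29.4, 26.4 and 21.1 FPKM in the same female tissues. Both tumors were below both precancerous libraries, but the female tumor was close to male normal liver. The ratio of tumor to precancerous liver was 0.593 (0.540 to 0.652) in males and 0.801 (0.756 to 0.849) in females. At -0.58 ± 0.19 on the log2 scale it missed the threshold (edgeR adjusted p = 0.0854), and only 1 of 14 alternative settings, DESeq2, called it lower. Erbb2, on chromosome 11 at 98412470 to 98437716, was between 0.0988 and 0.361 FPKM, with 4 to 10 counts in male and 27 to 43 counts in female libraries. It did not enter the test, and its tumor over precancerous ratios of 1.34 (0.460 to 4.15) in males and 1.03 (0.602 to 1.77) in females showed no difference that this depth can detect.

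Met, on chromosome 6 at 17463800 to 17573980, had 7.54, 8.58 and 5.79 FPKM in male normal, precancerous and tumor liver, and 5.42, 6.74 and 4.15 FPKM in the same female tissues. In each sex the tumor was the lowest and precancerous liver the highest, and the tumors did not overlap the precancerous libraries. The tumor over precancerous ratio was 0.675 (0.600 to 0.759) in males and 0.615 (0.563 to 0.672) in females. Met fell by 0.67 ± 0.11 on the log2 scale (edgeR adjusted p = 0.0130).

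Fgfr4, on chromosome 13 at 55152640 to 55168759, had 9.36, 8.22 and 4.25 FPKM in male normal, precancerous and tumor liver, and 14.5, 12.4 and 8.39 FPKM in the same female tissues. Klb, on chromosome 5 at 65348314 to 65384007, had 4.79, 5.53 and 2.79 FPKM in the male tissues and 5.77, 7.09 and 4.76 FPKM in the female ones. In each sex the tumor was lowest for both genes, although the female tumor's Fgfr4 level lay just above that of male precancerous liver. The receptor fell by 0.76 ± 0.15 (edgeR adjusted p = 0.0211) and the co-receptor by 0.78 ± 0.16 on the log2 scale (adjusted p = 0.0246). Their ratios of tumor to precancerous liver were nearly equal within a sex. They were 0.517 (0.412 to 0.645) for Fgfr4 and 0.506 (0.410 to 0.621) for Klb in males, and 0.678 (0.609 to 0.756) and 0.671 (0.603 to 0.747) in females.

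**Figure D2:**
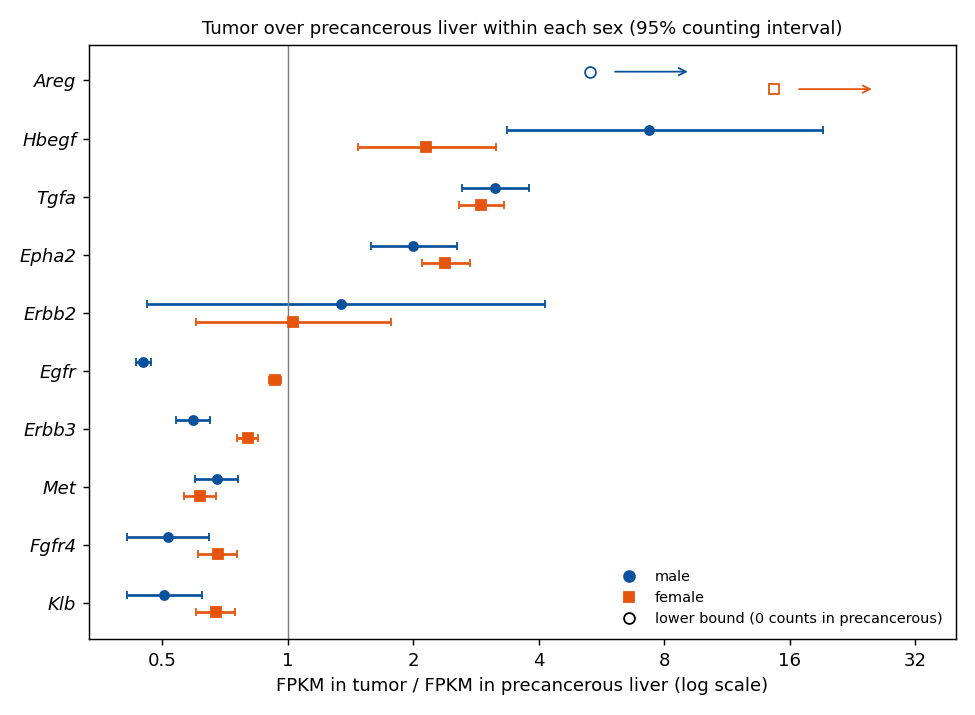
Ratio of the tumor level to the precancerous level of each gene within males (circles) and within females (squares), on a log axis; bars are 95% counting intervals, and open symbols with arrows are the lower bounds of Areg, which had 0 counts in both precancerous libraries. Areg, Hbegf, Tgfa and Epha2 lie to the right of 1 in both sexes, Egfr, Erbb3, Met, Fgfr4 and Klb to the left, and the Erbb2 intervals span 1.

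The calls against precancerous liver, for these genes as over all genes tested, depended on single libraries, most of all on both precancerous ones. Without the male one 0 of the 9 genes passed, and without the female one only Tgfa did; such a fit has 1 residual degree of freedom. The fits without male normal liver, without female normal liver, without the male tumor and over the 4 tumor and precancerous libraries each called Tgfa, Met, Epha2, Areg, Klb and Fgfr4. The fit without the female tumor did not call Met and Epha2.

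The wider EGF family followed its 3 members described above. Of 11 listed ligand genes 6 were tested and all 6 rose in tumors: Tgfa, Hbegf, Areg, Nrg1, Btc and Nrg4. Of these 6, Areg, Nrg1 and Btc reached 1 FPKM in the tumors alone and Hbegf needed a tumor library to be tested, so their count is in part set by the filter and Tgfa and Nrg4 alone entered without the tumors. Nrg1, the neuregulin that binds Erbb3 and Erbb4, had 5.57 FPKM in the male tumor against 0.207 in precancerous liver, and 4.51 against 0.664 FPKM in females. It rose by 3.33 ± 0.43 on the log2 scale (edgeR adjusted p = 0.00783). Btc, which encodes the Egfr and Erbb4 ligand betacellulin, rose by 2.97 ± 0.18 (adjusted p = 0.00271), and Nrg4, a ligand of Erbb4, by 1.10 ± 0.22 (adjusted p = 0.0230). Egf itself was below 0.1 FPKM in every library.

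Summed over the ligand list, the level was 6.04, 8.62 and 32.7 FPKM in male normal, precancerous and tumor liver, and 5.11, 8.43 and 32.5 FPKM in the same female tissues. The sums of the sexes were close in each tissue. Tgfa made up 63.9%, 35.1% and 29.0% of that sum in the male tissues and 49.8%, 35.9% and 27.1% in the female ones, so its share was smallest in tumors although its level was highest there. Nrg4 took 50.5% of the sum in male and 34.8% in female precancerous liver. For the 4 ErbB receptors the sum was 97.3, 114 and 55.2 FPKM in the male tissues and 48.7, 60.8 and 52.9 FPKM in the female ones. Egfr made up 70.2% or more of it in males and 37.6%, 55.4% and 59.4% in female normal, precancerous and tumor liver. The tumors of the sexes were thus closer to each other in receptor sum than the normal livers were.

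**Figure D3:**
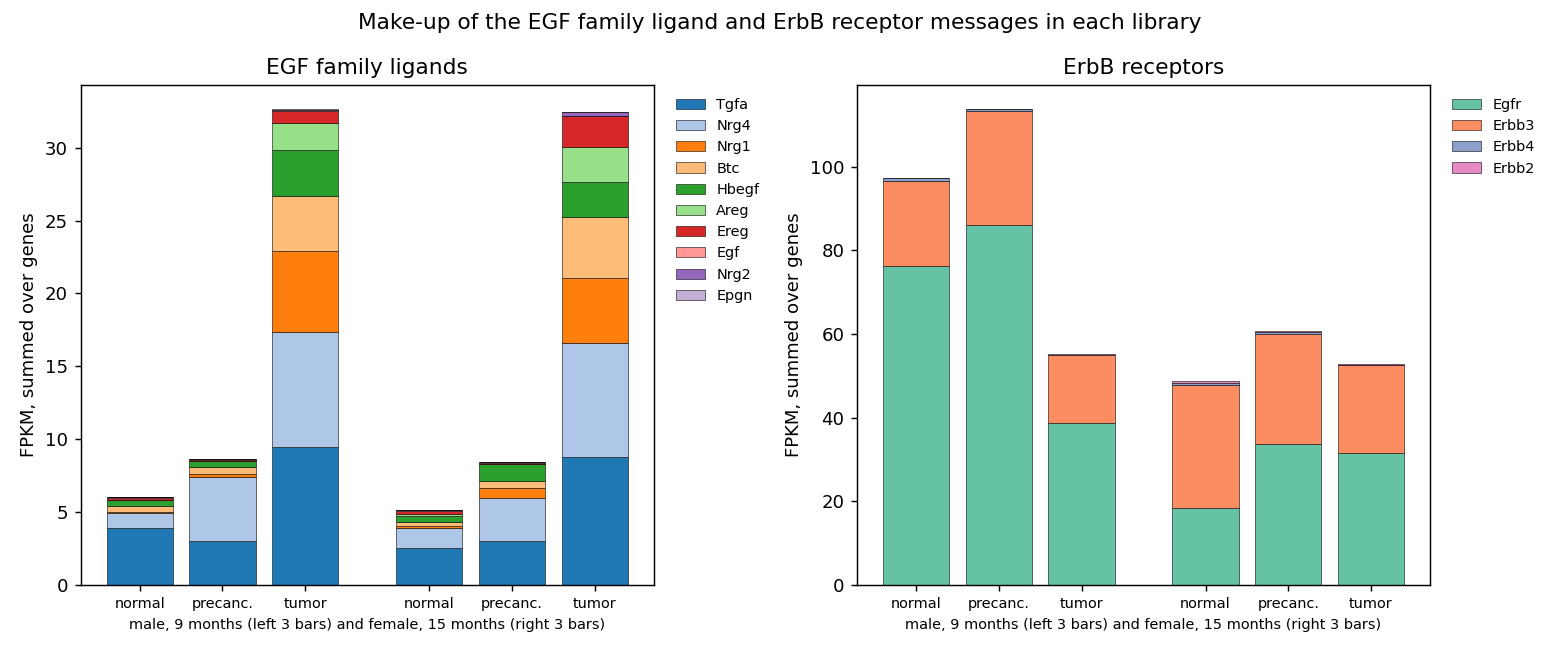
Stacked levels, in FPKM summed over genes, of the EGF family ligands (left) and the ErbB receptors (right) in each library, males in the left and females in the right bars of each panel. Both tumor libraries reach about the same ligand sum, 32.7 FPKM in males and 32.5 FPKM in females, while the receptor sum of males is 55.2 FPKM in tumor and 114 FPKM in precancerous liver.

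Some genes that serve ligand release rose as well. Of 6 tested genes for ligand shedding and trafficking 3 rose and none fell. Rhbdf2 and Rhbdf1, which encode the iRhoms that carry ADAM17 to the cell surface, rose by 1.36 ± 0.12 (edgeR adjusted p = 0.00362) and 1.24 ± 0.26 (adjusted p = 0.0270). Outside the tumors Rhbdf1 reached 1 FPKM only in female precancerous liver, at 1.47 FPKM, so it needed a tumor library to be tested. Frmd8, whose product stabilises the iRhoms, rose by 1.25 ± 0.16 (adjusted p = 0.00718). Adam17 itself, at 3.17 FPKM in the male tumor against 2.54 in precancerous liver, was not called. Of 12 tested inhibitors of ErbB and other receptor kinases 2 rose, beside 13.8% of all genes tested. These were Cd2ap by 1.12 ± 0.16 (adjusted p = 0.00983) and Socs5, which promotes Egfr turnover, by 1.06 ± 0.12 (adjusted p = 0.00625).

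Around Met, 3 genes of its axis rose and 3 fell among 12 tested, Met included, beside 13.8% and 12.1% of all genes tested. Hgf, its ligand, had 0.484 FPKM in the male tumor against 0.981 in precancerous liver, and 0.618 against 1.20 FPKM in females. It fell by 1.01 ± 0.15 on the log2 scale (edgeR adjusted p = 0.0111), so ligand and receptor messages were both lower. St14, which encodes matriptase, a protease that activates the ligand's precursor, rose by 3.05 ± 0.34 (adjusted p = 0.00592). Hgfac, of the same list, had 61.5 FPKM in the male tumor against 33.3 in precancerous liver, and 81.6 against 52.5 FPKM in females. Hgfac was not called here (adjusted p = 0.0844), but rose by 1.10 ± 0.25 against normal liver (adjusted p = 0.0254). Mst1r, which encodes RON, a receptor of the Met family, rose by 2.50 ± 0.30 (adjusted p = 0.00677). Masp1, a protease better known from complement activation, fell by 1.30 ± 0.16 (adjusted p = 0.00689). St14 and Mst1r, 2 of the 3 genes that rose, reached 1 FPKM in the tumors alone and so were tested only because of their tumor level. The third, Plxnb1, was above 1 FPKM in every library and rose by 0.93 ± 0.17 (adjusted p = 0.0173).

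Fgfr4 and Klb fell beside other genes of bile acid handling. Of 8 tested genes of the FGF15 response and bile acid synthesis, these 2 included, 5 fell and none rose, with a median log2 fold change of -1.12. Over all genes tested 12.1% fell and 13.8% rose. Slc10a1, the bile acid uptake carrier of hepatocytes, had 53.8 FPKM in the male tumor against 377 in precancerous liver, and 84.2 against 415 FPKM in females. It fell by 2.59 ± 0.21 (edgeR adjusted p = 0.00321). Nr1h4, the bile acid receptor FXR, fell by 1.46 ± 0.18 (adjusted p = 0.00683), and Cyp8b1, the enzyme that directs synthesis to cholic acid, by 2.14 ± 0.28 (adjusted p = 0.00794). Cyp7a1, the rate-limiting enzyme of bile acid synthesis, had 10.6 FPKM in the male tumor against 57.6 in precancerous liver, and 1.20 against 69.9 FPKM in females, and missed the threshold (adjusted p = 0.0716). Fgf15, which the intestine makes, had 0 counts in all 6 libraries, a floor of 3 counts each.

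Other FGF genes did not share one direction. Of 8 FGF receptor, co-receptor and ligand genes tested 2 rose and 4 fell, beside 13.8% and 12.1% of all genes tested. Fgf21, a hepatokine that also signals through Klb, was at 10.8 FPKM in the male tumor and 0.312 FPKM in male precancerous liver, and at 21.6 and 2.43 FPKM in the same female tissues. It rose by 3.60 ± 0.46 (edgeR adjusted p = 0.00771). Fgfr2 rose by 0.92 ± 0.22 (adjusted p = 0.0362), opposite to Fgfr4. Fgf1 fell by 2.17 ± 0.16 (adjusted p = 0.00290).

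Among 15 other receptor tyrosine kinase genes tested 5 rose and 4 fell. Ddr1, a collagen receptor, rose by 2.95 ± 0.23 on the log2 scale (edgeR adjusted p = 0.00318), and Flt4, a receptor of lymphatic growth factors, by 1.06 ± 0.15 (adjusted p = 0.00911). Styk1 had 0 counts in male normal and precancerous liver and 2.33 FPKM in the male tumor. Ntrk2, the neurotrophin receptor TrkB, fell by 1.60 ± 0.37 (adjusted p = 0.0335). Of 16 receptor adaptor genes 2 rose and 4 fell, beside 13.8% and 12.1% of all genes tested. Grb10 rose by 2.16 ± 0.28 (adjusted p = 0.00785), while Pik3r1, the regulatory subunit of PI3 kinase, fell by 1.15 ± 0.19 (adjusted p = 0.0147). Ddr1, Styk1 and Grb10, which are among the genes that rose, reached 1 FPKM in the tumors alone and entered the test through them.

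Markers of several cell types also differed between these tissues, beside 13.8% of all genes tested that rose and 12.1% that fell. Over the 12 cholangiocyte markers the summed level was 155 FPKM in the male tumor against 12.5 in precancerous liver, and 151 against 19.6 FPKM in females. Spp1, Sox9 and Prom1 rose, 3 of 6 tested (Prom1 through its tumor level alone), while the defining marker Krt19 was at 1.07 FPKM or less in every library. Of 11 tested Kupffer cell and macrophage markers 8 fell. The sum of the 14 listed was 202 FPKM in the male tumor against 402 in precancerous liver, and 318 against 581 FPKM in females. Ccr2 and Trem2 of this list were not tested and went the other way. Ccr2 had 1.02 FPKM in the male tumor against 0.217 in precancerous liver, and 0.579 against 0.180 FPKM in females. Trem2 had 0.467 against 0.142 FPKM in males and 0.647 against 0.206 FPKM in females. Endothelial markers gave 2 higher and 5 lower of 11, with sums of 59.3 to 61.5 FPKM in tumors and 84.5 to 93.3 FPKM in precancerous liver. Of 11 stellate cell and fibroblast markers 6 rose and 2 fell, with sums of 85.5 to 131 FPKM in tumors and 87.8 to 164 FPKM in precancerous liver. Dcn, which fell, was the largest share of each of these sums, at 74.4 and 141 FPKM in male and female precancerous liver. Of 5 T and NK cell markers 2 rose, and no marker of B or plasma cells or of neutrophils passed, with sums of at most 7.84 FPKM for each of these types in tumors. Emcn, Col1a2 and Nkg7, which are among the markers that rose, reached 1 FPKM in the tumors alone and entered the test through them. Col1a1 and Cd3e, which also rose, needed a tumor library to be tested. Of 10 hepatocyte markers 1 rose, Serpina1a, and 1 fell, Apoa2 by 0.88 ± 0.20 (edgeR adjusted p = 0.0314). Their sums, of which Alb is the largest share, were 76300 FPKM in the male tumor against 55325 in precancerous liver, and 73209 against 59407 FPKM in females. The part of these cell types in the ligand and receptor differences was not tested.

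The second comparison set precancerous liver of transgenic mice against normal liver of wild-type mice. No gene of the 9 tested passed here. By edgeR 0 passed at an adjusted p under 0.05 and 0 had an unadjusted p under 0.05, and DESeq2 and limma also called 0. Over all genes 0.105% rose and 0.149% fell, 0.254% in either direction, so few genes of any kind were called. Adjusted p-values of the 9 genes ran from 0.344 for Met to 0.940 for Tgfa.

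For Egfr the precancerous over normal ratio was 1.13 (1.09 to 1.17) in males and 1.84 (1.77 to 1.92) in females, and the fitted log2 fold change was 0.48 ± 0.42 (edgeR adjusted p = 0.640). Female precancerous liver held 6223 Egfr counts against 3962 in normal liver. Hbegf had a ratio of 2.47 (1.40 to 4.52) in females, from 40 counts against 19, and of 1.02 (0.292 to 3.66) in males, from 7 counts against 6. Its fitted change of 0.91 ± 0.51 did not pass (adjusted p = 0.459). Of the 10 genes 5 differed in the same direction in both sexes. Erbb2, Erbb3, Tgfa and Epha2 differed in opposite directions, and Areg had 0 counts in both male libraries. The Erbb2 differences of both sexes and the male Epha2 difference lay within counting error. Over all genes tested 33.0% moved in opposite directions. Among the pathway lists Cyp8b1 alone was called, and it fell by 3.22 ± 0.27 (adjusted p = 0.0377).

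The third comparison set tumors against normal liver. The ligands and Epha2 again rose, and Fgfr4 and Met fell. Of 9 genes tested 4 rose and 2 fell by edgeR, beside 17.3% and 16.1% of all genes, 33.4% in either direction. This comparison shares its tumor libraries with the first, so its values are given beside those above and not as separate support. Over all genes tested, calls were fewest with the female normal library left out. Without the female normal library 3 of the 9 passed, namely Tgfa, Epha2 and Fgfr4.

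Tgfa had a tumor over normal ratio of 2.45 (2.06 to 2.94) in males and 3.45 (3.05 to 3.91) in females, and rose by 1.52 ± 0.17 on the log2 scale (edgeR adjusted p = 0.00358). Hbegf had ratios of 7.48 (3.23 to 21.3) and 5.29 (3.23 to 9.14), and rose by 2.62 ± 0.46 (adjusted p = 0.0128). Areg was at least 4.63-fold higher in the male tumor, and 25.9-fold higher in the female tumor with an interval of 6.82 to 219, since normal liver gave 2 counts (adjusted p = 0.00978). Epha2 rose by 1.33 ± 0.20 (adjusted p = 0.00752). All 3 ligands and Epha2 were therefore above normal liver in both sexes.

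Fgfr4 fell by 0.97 ± 0.15 on the log2 scale (edgeR adjusted p = 0.00805), with ratios of 0.453 (0.361 to 0.567) in males and 0.580 (0.525 to 0.642) in females. It was the one receptor called lower under all 14 alternative settings. Met fell by 0.41 ± 0.11 (adjusted p = 0.0365), with ratios of 0.768 (0.677 to 0.870) in males and 0.766 (0.700 to 0.837) in females, and 5 of 14 alternatives gave that call. Klb, at -0.53 ± 0.16, just missed the threshold (adjusted p = 0.0579). Egfr had a ratio of 0.508 (0.487 to 0.530) in males and 1.72 (1.65 to 1.79) in females, opposite directions that left a fitted change of -0.10 ± 0.43 (adjusted p = 0.880). Of the 10 genes 8 differed in the same direction in both sexes and Egfr and Erbb2 did not, beside 21.7% of all genes tested that moved in opposite directions. The Erbb2 differences lay within counting error in both sexes.

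The 6 tested EGF family ligands rose against normal liver as well. Of these, Areg, Nrg1 and Btc were tested only through their tumor level, and Hbegf needed a tumor library to be tested. Nrg1 rose by 5.34 ± 0.54 (edgeR adjusted p = 0.00291), Btc by 3.70 ± 0.20 (adjusted p = 0.00121) and Nrg4 by 2.63 ± 0.24 (adjusted p = 0.00229). Of 6 shedding genes 4 rose, Adam10 with them by 0.60 ± 0.10 (adjusted p = 0.0117), and Rhbdf1 again needed a tumor library to be tested. Among the inhibitors 3 rose and 1 fell of 12, beside 17.3% and 16.1% of all genes tested. The one that fell was Errfi1, the feedback inhibitor MIG6 that binds the Egfr kinase, by 0.85 ± 0.17 (adjusted p = 0.0168), with 140 FPKM in the male tumor against 248 in normal liver and 123 against 216 FPKM in females. Of the 8 bile acid and FGF15 response genes 5 fell, Cyp8b1 by 5.36 ± 0.30 (adjusted p = 0.00121) and Abcb11, the bile salt export pump, by 1.89 ± 0.21 (adjusted p = 0.00371).

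**Figure D4:**
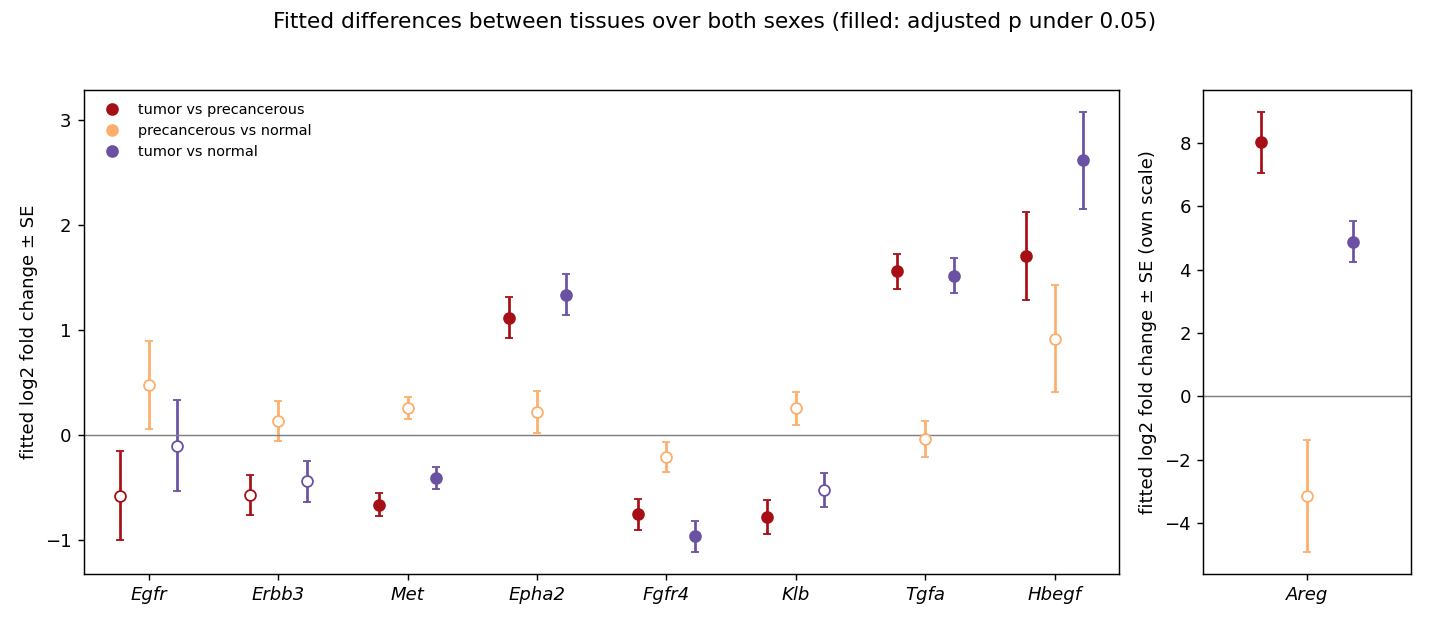
Fitted log2 fold changes over both sexes ± SE for the 9 tested genes in the tumor against precancerous, precancerous against normal and tumor against normal comparisons; filled points passed an edgeR adjusted p under 0.05, and Areg has a scale of its own because its fitted size depends on the prior count. No precancerous against normal point is filled, and Egfr and Hbegf have the widest errors in the left panel.

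The last comparison set males against females over the 3 tissues; age, depth and the mitochondrial divide go with sex here and cannot be told apart from it. Met was higher in males, and Fgfr4 and Klb were lower in males. Of 9 genes tested 1 was higher and 2 were lower in males by edgeR, beside 19.1% and 18.2% of all genes, 37.3% in either direction. Over all genes 2187 were higher and 2083 lower in males with TMM normalization, but 2737 and 1602 with library totals alone. Calls over all genes were fewest with a precancerous library of either sex left out. Without the female precancerous library 0 of the 9 passed, and without the male precancerous library only Fgfr4 did.

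Met had male over female ratios of 1.39 in normal liver, 1.27 in precancerous liver and 1.39 in tumors, and a log2 fold change of 0.34 ± 0.09 (edgeR adjusted p = 0.0330). Fgfr4 had ratios of 0.648, 0.664 and 0.506 in the same tissues and fell by 0.82 ± 0.12 (adjusted p = 0.00941). Klb had ratios of 0.830, 0.779 and 0.587 and fell by 0.55 ± 0.13 (adjusted p = 0.0288). Both genes of the FGF15 receptor were thus lower in every male tissue, and lowest relative to females in tumors.

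The Egfr ratio of males to females was 4.17 in normal liver, 2.56 (2.47 to 2.64) in precancerous liver and 1.23 (1.18 to 1.28) in tumors. The sexes were farthest apart in normal liver and closest in tumors. The change of the ratio between tissues was not tested, since each sex has 1 library a tissue. Over the tissues Egfr was at 1.15 ± 0.36 on the log2 scale and missed the threshold (edgeR adjusted p = 0.0566), and 5 of 13 alternatives called it. None of the 3 ligands passed, with fitted values of 0.14 ± 0.14 for Tgfa, -0.28 ± 0.38 for Hbegf and -0.55 ± 0.51 for Areg. Among the lists, 0 of 6 EGF ligands, 5 of 8 FGF genes and 7 of 15 other receptor tyrosine kinases passed, the last 2 groups all lower in males. Ntrk2 had a log2 fold change of -2.62 ± 0.31 (adjusted p = 0.00649). Markers of other cell types moved with sex as well: 7 of 11 Kupffer cell and macrophage markers and 6 of 11 stellate cell and fibroblast markers were lower in males and none was higher. Csf1r and Pdgfrb stand both in these lists and among the receptor tyrosine kinases. The macrophage sum was 278, 402 and 202 FPKM in male normal, precancerous and tumor liver, against 418, 581 and 318 FPKM in the same female tissues, and the stellate sum was 79.1, 87.8 and 85.5 FPKM in males against 159, 164 and 131 FPKM in females. Dcn was the largest share of each stellate sum. The part of these cell types in the sex differences was not tested.

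For each of the 10 genes the most similar genes were taken as those at the smallest Euclidean distance in log2(FPKM + 1), centred on the gene's own mean, over the 6 libraries. Met had the nearest neighbour of any receptor tested, Col4a3bp at a distance of 0.102, followed by C1s1 and Pcyt1a. Nearest to Fgfr4 were Fbxo31 (0.149), Tysnd1 and Ppdpf, and nearest to Klb were Adgrg3 (0.167), Slc40a1 and Mroh6. Repin1 (0.156), Ppargc1b and Adcy4 lay closest to Erbb3. Egfr stood more alone, with Dpy19l1 at 0.568, then Hes6 and Rbm15b.

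Of the genes higher in tumors, Tgfa was nearest to Tmem62 (0.154), Igf2r and Agfg1, and Epha2 to Pqlc2 (0.151), Pdlim7 and Slc2a1. Hbegf was nearest to Angpt2 (0.188), which had 2.86 and 1.99 FPKM in the male and female tumors, then to Cd276 and Alox5. Areg lay nearest to Pqlc3 (0.205), Cstb and Chrna4. The distances of Erbb2, 0.0857 to Zfyve27 and little more to Secisbp2 and Araf, are small because its own level hardly left 0.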

How the data were processed

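Per the labels' protocols, a mirVana kit served to isolate RNA and a VAHTS stranded kit to build the libraries. The deposited table holds whole-number counts per gene, which the authors left unnormalized, and FPKM values, the authors' scaling of each count to gene length and library total. The submitters' processing notes name TopHat2 2.0.9, Cuffdiff, GRCm38 and mm10 without the step each served; for the strand setting the sources used here give nothing. Gene coordinates are those of the table, and strands and exon overlaps come from GENCODE M21.

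The 11435 of 34745 genes that reached 1 FPKM in 2 or more libraries were tested. The counts went into a quasi-likelihood test (edgeR 4.0.16 under R 4.3.3), TMM normalized, with tissue and sex as additive terms over 6 libraries, which leaves 2 residual degrees of freedom. Its spread is the departure from additivity, since each group has 1 library. Calls are two-sided at a Benjamini-Hochberg adjusted p under 0.05. The code was tested on simulated data. Alternatives were another normalization, library totals alone, no filter, a filter on the mean (chosen after seeing the data), DESeq2 1.42.0, limma 3.58.1 on log2(FPKM + 1) and log2(FPKM + 0.1), the libraries of the tissues compared, and each library left out.

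Ratios within a sex carry exact 95% binomial intervals of the counts, which cover counting error only; lower bounds use 3 counts in the library at 0. The 10 genes, the pathway lists and the marker lists were chosen with earlier results of these data known. Called genes of each list were named by size, at most 4 a list and comparison, and others by that size where none was called. Nrg4, Adam17, Cyp7a1, Egf, Fgf15, Styk1, Krt19, Erbb4, Efna5, Hgfac, Plxnb1, Ccr2 and Trem2 are given as values for their role. Promoters come from a RefSeq table on GRCm38.p6, in which 8 of the 10 genes had an entry.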

Additional observations from a re-analysis of the deposited data

Results flagged for a closer look

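Several genes moved in opposite directions in the sexes; each difference rests on 1 library a group and was not tested. Values are the male difference minus the female difference in log2(FPKM + 1). For tumor against normal liver it was -1.707 for Egfr, which was lower in the male and higher in the female tumor, and 0.225 for Erbb2. For precancerous against normal liver it was 0.549 for Erbb3, higher in male and lower in female precancerous liver, and 0.1706 for Erbb2, which moved the same way but had at most 43 counts. In that comparison Tgfa gave -0.4559 and Epha2 -0.3399, both lower in male and higher in female precancerous liver. The male Epha2 ratio was 0.982 with a counting interval of 0.736 to 1.31. For Erbb2 the intervals of both sexes spanned 1 in both comparisons. The Erbb2 directions and that of male Epha2 thus lie within counting error.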

How the results depend on the processing

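Calls rested on few libraries, and most that were lost were lost when 1 was left out, which leaves 1 residual degree of freedom. With a library left out, 0 to 6 of the 9 genes passed between tumor and precancerous liver (7 with all libraries), 3 to 5 between tumor and normal liver (6), 0 to 3 between males and females (3) and 0 between precancerous and normal liver (0). No fold change that passed changed sign. Several fold changes that did not pass ran across 0 when a library was left out. In tumor against precancerous liver, Egfr ran from -1.39 (without the female tumor) to 0.01533 (without the male tumor), and in tumor against normal liver from -0.862 to 0.5571, under the same choices. In precancerous against normal liver, Egfr ran from -0.05169 to 1.169, Erbb3 from -0.1153 to 0.4067, Hbegf from -0.1748 to 1.423, Tgfa from -0.3173 to 0.2218 and Epha2 from -0.09921 to 0.4862. Between males and females, Hbegf ran from -0.9726 to 0.1437 and Tgfa from -0.03574 to 0.2382. The cause of these turns was not tested. Counts over all genes moved by more than 1.5 times too. With a library left out, 458 to 2933 genes passed between tumor and precancerous liver (2965 with all libraries; lowest without male, then 506 without female precancerous liver), 1923 to 3241 between tumor and normal liver (3819; lowest without female normal liver) and 762 to 3732 between males and females (4270; lowest without male precancerous liver). Over the 4 libraries compared, 2480 passed between tumor and normal liver. Between precancerous and normal liver 29 passed, but 183 without a filter, 368 by DESeq2, 3 and 10 by limma with pseudocounts of 1 and 0.1, 213 in the 4 libraries compared, and 0 to 219 with a library left out. The sex term of the model already compares tissues within each sex.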
